A study of Bos taurus with 20 samples.

Results

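This account concerns 218 gene IDs whose messenger RNA peaked on day 5 of the estrous cycle in the bovine endometrium, the lining of the uterus, out of 27607 IDs counted. Counts per 1000000 (CPM) were computed from each library's total, and the median over the 4 libraries of a day was taken with 0.5 CPM added. An ID was included when this day 5 median was at least 5 CPM and at least 2 times the median of each of days 0, 10, 14 and 18, with the day 0 median under 1000 CPM. That last limit removed none, since 218 IDs met the other conditions without it. The IDs were thus chosen by the medians of all 5 days, and their day 5 peak is given below as a description with no test.

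The animals were Holstein virgin heifers, at least 7 months old and at least 340 kg, sexually mature and non-lactating. All of them, on every day, had the same synchronization: a GnRH analog (Fertagyl), an intravaginal progesterone insert (Eazi-Breed), and 2 doses of the prostaglandin analog cloprostenol (Estrumate), so no group with a spontaneous cycle is part of the comparison. Heifers were allotted at random to an endometrial biopsy on day 0 (estrus), 5, 10, 14 or 18, with 4 heifers and 4 libraries per day. Library totals ran from 21234000 to 26644679 counts.

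In the cow, the follicle's estrogen dominates at estrus, and after ovulation a corpus luteum forms and releases rising amounts of progesterone. Progesterone acts on the stroma and on the luminal and glandular epithelium, and the secretions of the glands nourish the early embryo before it attaches. Day 5 lies early in this luteal rise, close to the time at which an embryo would enter the uterus from the oviduct. The deposited tables give Ensembl-style IDs and no symbols, and the cattle gene table used here held 0 of the 27607. The IDs are thus described as groups and by their behaviour, 4 of them are printed, and the endometrial origin of the samples was not checked against marker genes.

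The day 5 medians of the 218 IDs spanned 4.64 to 496 CPM, with a middle value of 24.1 CPM. At estrus the middle value was 3.88 CPM, and at days 10, 14 and 18 it was 6.97, 5.84 and 4.27 CPM. These were mostly transcripts of moderate abundance: 172 had a day 5 median of at least 10 CPM and 31 of at least 100 CPM, while the middle value of the 16947 IDs tested for differences between days was 19.4 CPM on day 5. With the 0.5 CPM offset, the day 5 median was 4.30 times that of day 0 in the middle ID, 2.97 times that of day 10, 3.29 times that of day 14 and 4.03 times that of day 18. The same rule, applied with the peak moved to another day, selected 248 IDs for day 0, 179 for day 10, 76 for day 14 and 19 for day 18.

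Most of these peaks were modest. The ratio of the day 5 median to the next highest day was 2.56 in the middle ID; 70 IDs reached 3, 30 reached 4 and 7 reached 8, with a maximum of 28.3. At the edge of the rule, 60 IDs had a ratio under 2.2, the lowest being 2.001, and a further 99 IDs fell just outside with a ratio from 1.8 to 1.996. On the side of abundance, the lowest day 5 median with the offset was 5.14 CPM inside and the highest was 4.96 CPM outside. The border thus cut through a continuous range of ratios.

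The sampling day after the peak was most often the next highest. For 118 IDs the next highest median was that of day 10, for 54 that of day 14, for 35 that of day 0 and for 11 that of day 18. Estrus gave the lowest median for 112 IDs, while days 10, 14 and 18 gave it for 15, 32 and 59. Medians went down at each step from day 10 to 14 to 18 in 86 IDs. In 109 IDs the 4 other medians lay within 2-fold of each other, and in 30 they differed by at least 4-fold. The falling order had no minimum step, so an ID can count both among the 86 and among the 109. Neither pattern was tested.

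The 4 day 5 libraries did not carry the peak alike, and replicate 1 lay with the other days for most of the 218 IDs. Whether that library bears the right day label was not tested, and the day 5 split, the classes set by it and the day 5 calls below all rest on the label as given. The 218 IDs together held 0.460% of the counts of day 5 replicate 1 (95% Wilson interval 0.457 to 0.462, counting error only), against 1.64% in replicate 2, 1.16% in replicate 3 and 1.36% in replicate 4. The day 5 mean was 1.16% ± 0.504 (SD, n = 4), and 1.39% ± 0.239 (SD, n = 3) without replicate 1. Replicate 1 lay within the range of day 10 for this share, while the other day 5 libraries were above every library of the other days.

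Estrus had a share of 0.280% ± 0.0444, and the shares of days 10, 14 and 18 were 0.487% ± 0.151, 0.351% ± 0.0565 and 0.316% ± 0.0778 (SD, n = 4). Day 10 spread from 0.292% in replicate 3 to 0.660% in replicate 2, and day 18 from 0.254% in replicate 3 to 0.426% in replicate 2. Day 0 was narrow, from 0.250% to 0.346%. In biopsies of whole tissue, fewer cells of a type and less RNA per cell cannot be told apart, and this holds for every value here.

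**Figure D1:**
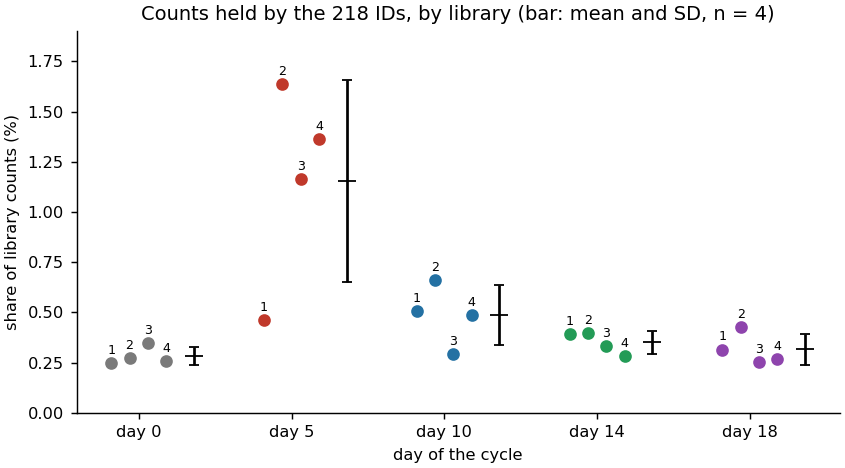
Share of each library's counts (percent, vertical axis) held by the 218 IDs, by day of the cycle; points are libraries with their replicate number and bars give the mean and SD of 4 libraries. Day 5 replicates 2 to 4 lie between 1.16% and 1.64%, and day 5 replicate 1 lies at 0.460%, among the day 10 libraries.

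Counted by ID, the split of day 5 was as wide. Replicate 1 was the lowest of the 4 day 5 libraries in 149 IDs, replicate 3 in 58, replicate 4 in 10 and replicate 2 in 1. Replicate 2 was the highest of all 20 libraries in 95 IDs, replicate 4 in 43, replicate 3 in 31 and replicate 1 in 9, and day 10 replicate 1 was the highest in another 31. A level of at least 50% of the day 5 median was reached by 217 IDs in replicate 2, 192 in replicate 3, 217 in replicate 4 and 82 in replicate 1. The libraries of estrus had 6 to 22 such IDs, and those of days 10, 14 and 18 had 45 to 79, 6 to 57 and 7 to 75. By this measure day 5 replicate 1 resembled the fuller libraries of days 10 and 18 in number.

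All 4 day 5 libraries lay above all 16 others in 14 of the 218 IDs (6.42%; 0.336% of all tested IDs did so). In 102 IDs 3 of the 4 did, in 37 IDs 2, in 25 IDs 1, and in 40 IDs none. For these partial counts no share of all tested IDs was computed, so nothing is read from them. Leaving out replicate 1, the remaining 3 libraries were above all 16 others in 110 IDs (50.5%, and 2.76% of all tested IDs). Against single days, day 5 did not overlap and was higher in 120 IDs for day 0 (20.3% of all tested IDs), 24 for day 10 (5.78%), 63 for day 14 (8.54%) and 40 for day 18 (3.02%). Without replicate 1 these counts were 202, 129, 183 and 155, where the shares of all tested IDs were 28.8%, 10.7%, 16.3% and 11.1%. The rule used these contrasts, so the counts describe how the selected IDs are built and nothing is read from their excess.

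Day 5 replicate 1 divided the IDs into 2 classes that were set after the values were seen. In 82 IDs it reached at least 50% of the day 5 median, and in the other 136 it stayed under 50%. They are called replicate-1-high and replicate-1-low IDs below, names that refer to that library alone. Of the 82, 13 had all 4 day 5 libraries above the 16 others and 32 had none, and day 5 replicate 3 reached 50% in 57. These counts only describe the class. In the middle replicate-1-low ID, replicate 1 stood at 0.143 times the median of the other 3 day 5 libraries, and in 35 it was under 10% of the day 5 median. In the middle replicate-1-high ID it stood at 1.26 times the median of the other 3. Only 16 IDs lay near the border, between 0.4 and 0.6 times the day 5 median. Over all 16947 tested IDs the middle log2 ratio of replicate 1 to the other 3 was at 0.00, and 9.06% were at 50% or less, against 63.3% of the 218. The 218 were chosen by these same day 5 values, so nothing is read from that difference.

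**Figure D2:**
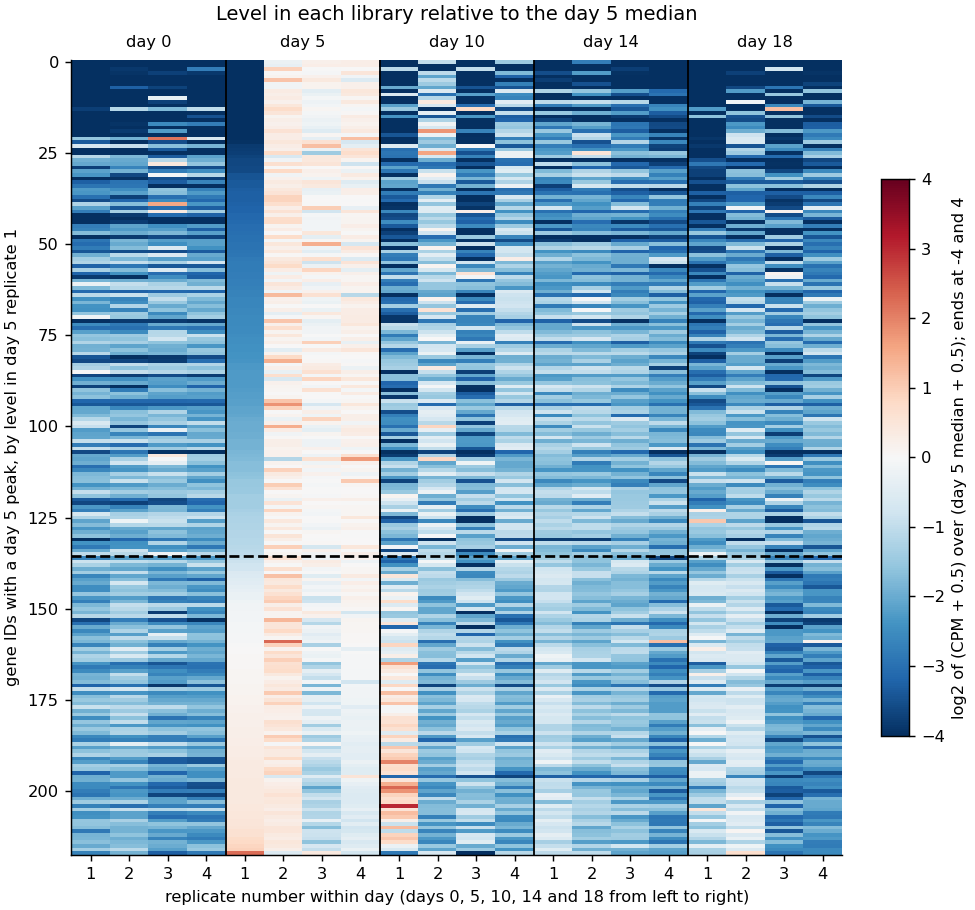
Level of each of the 218 IDs (rows, ordered by their level in day 5 replicate 1) in each of the 20 libraries (columns, by day and replicate number), as the log2 of CPM + 0.5 over the day 5 median + 0.5, with the colour scale ending at −4 and 4. The dashed line separates the 136 replicate-1-low IDs above from the 82 replicate-1-high IDs below; above it, day 5 replicate 1 has the blue of the other days, and below it many IDs of day 10 replicate 1 are as red as on day 5.

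The 136 replicate-1-low IDs were the more abundant and the sharper ones. Their middle day 5 median was 32.2 CPM, against 15.8 CPM for the replicate-1-high IDs, and their middle ratio to the next day was 2.78, against 2.33. Since the ratio and the split both use day 5 values, these numbers only describe the classes. Replicate-1-low IDs made up 1.27%, 0.981% and 1.12% of the counts of day 5 replicates 2, 3 and 4, and 0.181% of those of replicate 1. Their level in replicate 1, with a middle log2 value of −2.59 relative to the day 5 median, was below that of each day 0 library, where it ran from −2.39 to −2.09. The class was set by low values in replicate 1, so nothing is read from this order.

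Outside day 5, the replicate-1-low IDs separated the day 10 heifers as well. Their middle log2 level relative to the day 5 median was −1.07 in day 10 replicate 2 and −1.32 in replicate 4, but −2.76 in replicate 1 and −2.66 in replicate 3. At least 50% of the day 5 median was reached by 63 and 45 of the 136 IDs in replicates 2 and 4, and by 12 and 14 in replicates 1 and 3. Day 10 replicates 1 and 3 and day 18 replicate 3 also lay apart over all genes, with scores of 103, 119 and 117 on the first principal component of log2 CPM, where the next highest was 33.3 in day 14 replicate 4. Day 5 replicate 1 did not lie apart on that component: its score was −6.92, beside −19.6 to −5.20 for the other day 5 libraries. What part the axis plays in the low replicate-1-low levels was not tested.

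The 82 replicate-1-high IDs followed another order of the heifers. Day 10 replicate 1, low for replicate-1-low IDs, was the library with the second highest replicate-1-high level of all 20, at 0.31 above the day 5 median on the log2 scale, after 0.43 in day 5 replicate 2. It held 48 of the 82 IDs at or above the day 5 median, and 31 had their highest value of all libraries there. The other day 10 libraries were at −1.75, −1.20 and −1.95 for replicates 2, 3 and 4. The next levels outside day 5 were −0.79 in day 18 replicate 2, −0.93 in day 14 replicate 1 and −0.97 in day 18 replicate 1, against −2.42 and −2.47 in day 18 replicates 3 and 4. A level above the day 5 median thus occurred in 1 heifer outside day 5, that of day 10, while 1 heifer of day 14 and 2 of day 18 came to levels not far from that of day 5 replicate 3, the lowest of its day at −0.67.

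**Figure D3:**
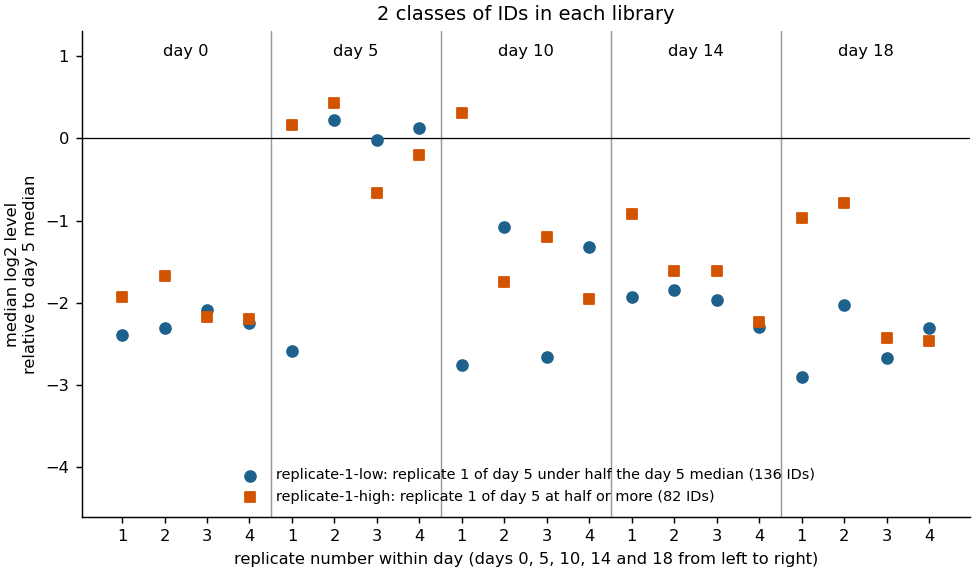
Median log2 level relative to the day 5 median (vertical axis) of the 136 replicate-1-low IDs (circles) and the 82 replicate-1-high IDs (squares) in each of the 20 libraries, by day and replicate number. The classes were set by day 5 replicate 1, so their gap there (−2.59 against 0.16) follows from the definition. Among the other libraries they part most in day 10 replicate 1 (−2.76 against 0.31). They lie close together in day 0 replicates 3 and 4 and in day 14 replicate 4.

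The replicate-1-high IDs moved together from heifer to heifer. Over the 16 libraries outside day 5, with day means removed, the middle correlation of log2 CPM between pairs of replicate-1-high IDs was r = 0.73, against 0.24 between pairs of replicate-1-low IDs, −0.18 between the classes and 0.0025 between pairs of all tested IDs. Without the 3 libraries that lay apart, over 13 libraries, the values were 0.72 within the replicate-1-high IDs, 0.10 within the replicate-1-low IDs and 0.04 between the classes. These values use libraries that did not define the classes, but genes of a library share its depth and composition, so they are given as a description.

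Within-day spread was wide for the selected IDs. The middle SD of log2 CPM over the 4 libraries reached 1.10, 1.28 and 1.09 at days 5, 10 and 18, but 0.45 and 0.59 at days 0 and 14. Over all tested IDs it was 0.32, 0.46, 0.55, 0.28 and 0.30 on days 5, 10, 18, 0 and 14. Without replicate 1, the day 5 value was 0.43 for the 218 IDs and 0.22 for all tested IDs. In the edgeR fit over all 20 libraries the middle biological coefficient of variation of the 218 IDs was 0.658, against 0.328 for all tested IDs. The rule chose the 218 by medians of these same libraries, and the sets were not matched for abundance. Their difference in spread is thus a description from which nothing is read.

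Levels of the 218 IDs on the days other than day 5 were compared with edgeR's quasi-likelihood test, fitted over 16947 IDs with p-values Benjamini-Hochberg adjusted over all of them. The rule capped the medians of these days below day 5 but set no order among them. These medians thus took part in the selection, and the cap can limit how far the days part. The shares of all tested IDs, here and for the other pairs of days below, are given for description. Nothing is read from the differences between them and the shares of the 218. All 218 passed the low-count filter, which 4 day 5 libraries alone could satisfy; 212 also had at least 1 CPM in at least 4 of the 16 other libraries. From day 0 to day 10, 31 of the 218 rose (14.2%, with 8.62% of all tested IDs called as rising) and 1 fell (0.459%, with 7.18% called as falling). The middle log2 fold change of the 218 was 0.85, also with the 2 IDs without any day 0 count set to their bound of 3 counts over the 4 libraries, and that of all tested IDs was 0.04. The 31 that rose had middle values of 2.77, 33.5, 10.4, 7.65 and 4.39 CPM at days 0, 5, 10, 14 and 18. The ID that fell went from a median of 1.92 to 0.493 CPM (log2 fold change −3.27, SE 1.08, edgeR adjusted p = 0.0489). On day 0 it was at 10.8 CPM in replicate 3 and at most 2.29 CPM in the others, and none of the 218 was called as falling when any 1 day 0 library was left out. With replicate 1, 2, 3 or 4 of estrus left out the count of 32 calls (15.8% of all tested IDs in either direction) dropped to 13, 11, 15 or 12 (8.36%, 7.28%, 10% or 9.08% of all tested IDs), and without day 10 replicate 1 to 17 (8.3%). Without day 10 replicate 2, 3 or 4 it was 41, 33 or 42 (16.4%, 12.8% or 14.6%). The 41 held 38 rises and 3 falls, and the 33 and the 42 were all rises. DESeq2 called 63 (23.6% of all tested IDs): 59 rose and 4 fell, where 13.2% and 10.4% of all tested IDs did. Limma voom with quality weights called 33 (28.7%): 32 rose and 1 fell, where 13.7% and 15% of all tested IDs did. Rises numbered 31 by edgeR and 32 by voom, beside 8.62% and 13.7% of all tested IDs, so the margin was narrower by voom.

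From day 0 to day 14 few of the 218 IDs passed the edgeR test, which does not show the others to be equal on both days. Of the 218, 6 rose (2.75%, with 7.28% of all tested IDs) and 3 fell (1.38%, with 8.43%). The 6 that rose were all among the 31 that rose to day 10. The middle log2 fold change was 0.23, unchanged with the 2 IDs at their bound, beside 0.03 for all tested IDs. In the 3 that fell, day 0 held the next highest median after day 5. The count of 9 (15.7% of all tested IDs in either direction) dropped when 1 library was left out: to 3, 2, 2 or 3 for replicates 1 to 4 of day 0, and to 2, 2, 2 or 4 for those of day 14. The share of all tested IDs dropped as well, to between 5.91% and 12.6%. It was 33 (21 rose, 12 fell) without the 3 libraries that lay apart, 14 with scaling by total counts alone, 16 with a block for the replicate number, 32 by DESeq2 and 48 by voom, against 25.3%, 18.9%, 17.3%, 23.7% and 48.6% of all tested IDs.

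Between estrus and day 18 few of the 218 IDs were called: 1 rose (0.459%; 1.07% of all tested IDs) and 1 fell (0.459%; 1.75%) from day 0 in the edgeR test, and the middle log2 fold change was 0.32, or 0.06 over all tested IDs. Without day 18 replicate 1 the count of 2 (2.83% of all tested IDs in either direction) became 7 (13.7% of all tested IDs), without day 18 replicate 2 it was 1, and without day 18 replicate 3 or 4 or any 1 of the day 0 libraries it was 0. DESeq2 called 13 (9.87% of all tested IDs) and voom 2 (12.3%). The 4 day 18 heifers were not alike: at least 50% of the day 5 median was reached by 49 and 75 IDs in replicates 1 and 2, and by 11 and 7 in replicates 3 and 4, beside 6 to 22 at estrus. An ID that misses the threshold is not thereby shown to be equal on both days.

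Among days 10, 14 and 18, none of the 218 IDs passed the edgeR test. The share of all tested IDs called was 0% for each of these 3 pairs of days. From day 10 to day 14 the middle log2 fold change was −0.60 (all tested IDs −0.02), with 34 IDs at an unadjusted p under 0.05, all lower on day 14 (15.6% of the 218, and 8.24% of all tested IDs). From day 10 to day 18 it was −0.61 (all tested IDs 0.01), with 33 such IDs, 31 of them lower at the later day (15.1% and 8.16%). Between days 14 and 18 the middle change was 0.03 (all tested IDs 0.02), with 8 such IDs (3.67% and 10%). DESeq2 called 0, 2 and 0 IDs in these pairs (0.0889%, 0.462% and 0.242% of all tested IDs) and voom 0 in each (0.13%, 0.0059% and 0%). Fitted changes follow day means, which single high libraries raise. By library, the middle log2 level relative to the day 5 median was −1.67 ± 0.23 at day 10, −1.81 ± 0.36 at day 14 and −2.09 ± 0.52 at day 18 (SD, n = 4), and the libraries of these days overlapped.

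**Figure D4:**
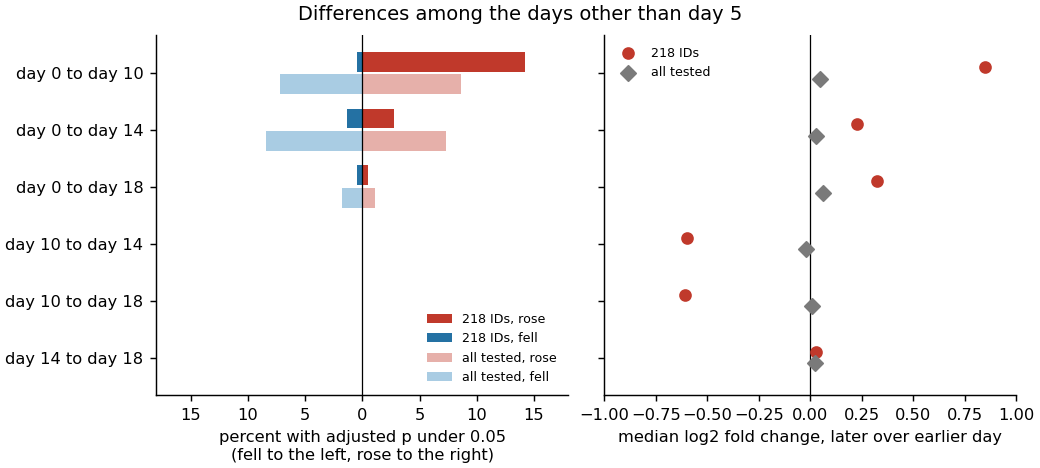
Differences between pairs of days other than day 5, from the edgeR fit: on the left, the percent of the 218 IDs and of all 16947 tested IDs that fell or rose with adjusted p under 0.05; on the right, the middle log2 fold change of each set. From day 0 to day 10, 14.2% of the 218 rose against 8.62% of all tested, and from day 10 to day 14 or 18 the middle of the 218 lies near −0.60 while that of all tested lies near 0.

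The contrasts with day 5 chose the IDs, and the edgeR calls on them are listed as a description from which nothing is read. From day 0 to day 5, 97 of the 218 passed, all higher on day 5 (44.5%), where 4.43% of all tested IDs rose, 4.14% fell and 8.57% did either. Falls passed in 0 IDs to day 10 (0.0059% of all tested IDs), 22 to day 14 (10.1%; 0.602%, with 0.578% rising and 1.18% in either direction) and 1 to day 18 (0.459%; 0.0059%). In all, 102 IDs passed at least 1 of the 4 contrasts (46.8%; 9.37% of all tested IDs), 17 passed both the rise from day 0 and the fall to day 14 (7.8%; 0.224%), and 110 passed in no pair of days (50.5%; 74.7%). To day 10, 100 IDs had an unadjusted p under 0.05 (45.9%, and 13.3% of all tested IDs in either direction), and the lowest edgeR adjusted p was 0.144. DESeq2 called 27 and voom 94, all as falls, where 0.509% and 3.48% of all tested IDs fell.

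These counts changed with the libraries included, as did those over all tested IDs. The 97 became 39, 48, 52 or 41 when replicate 1, 2, 3 or 4 of estrus was left out. The count was 40 or 54 without replicate 2 or 4 of day 5. All of these were rises, and the share of all tested IDs that rose in these fits was 1.2% to 2.33%. Without day 5 replicate 1, the falls numbered 15 to day 10, 84 to day 14 and 70 to day 18 (0.14%, 2.82% and 1.69% of all tested IDs). Without day 5 replicate 2, 3 or 4, or any 1 of the day 14 libraries, the falls to day 14 numbered 0 (at most 0.0175% of all tested IDs). The falls to day 18 numbered 24 without day 18 replicate 1 (0.798% of all tested IDs) and 0 without day 18 replicate 4. Without the 3 libraries that lay apart, 158 rose from day 0, where 9.83% of all tested IDs rose. Falls in that fit numbered 0 to day 10, 107 to day 14 and 0 to day 18 (0.00576%, 3.05% and 0.00576% of all tested IDs).

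The sharpest peak was that of ENSBTAG00000005268. On day 5 it reached 0.890, 66.9, 100.2 and 101 CPM in replicates 1 to 4, against 0, 0.132, 0.317 and 0.113 CPM on day 0. It was at 0.0431, 3.15, 0 and 2.09 CPM on day 10, 1.80, 0.895, 1.72 and 0.559 CPM on day 14, and 2.27, 2.68, 0 and 2.80 CPM on day 18. Day 5 replicates 2 to 4 stood more than an order of magnitude above everything else, and day 5 replicate 1 was among the other days. The 3 libraries that lay apart had 1, 0 and 0 counts. Its day 5 median was 28.3 times the next highest, that of day 18, and its fitted log2 fold changes were 8.65 (SE 1.65) from day 0 to day 5 and −5.63 (SE 1.38) from day 5 to day 10. From day 0 to day 10 the log2 fold change was 3.02 (SE 1.45, edgeR adjusted p = 0.159, range 0.0422 to 0.356 over 16 alternatives); it passed without the 3 libraries that lay apart (4.00, edgeR adjusted p = 0.0422).

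ENSBTAG00000035171 came next, with a day 5 median 25.3 times that of day 10. Its day 5 values were 1.56, 175.5, 104 and 54.7 CPM, and its day 10 values 3.41, 37.6, 0.840 and 1.91 CPM, in replicates 1 to 4. On day 0 it was at 0.882, 3.92, 3.09 and 0.676 CPM, on day 14 at 5.41, 2.60, 2.04 and 1.16 CPM, and on day 18 at 1.36, 2.78, 0.763 and 0.903 CPM. It was again low in day 5 replicate 1, and day 10 replicate 2 was the single library of another day that came near day 5 replicates 2 to 4. Its log2 fold change was 5.10 (SE 1.26) from day 0 to day 5 and −2.91 (SE 1.13) from day 5 to day 10. From day 0 to day 10 it was 2.19 (SE 1.12, edgeR adjusted p = 0.186, range 0.0932 to 0.924 over 16 alternatives), and −0.16 without day 10 replicate 2.

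Of the 14 IDs with no overlap between day 5 and the other days, ENSBTAG00000017745 had the highest day 5 median. It measured 148, 279, 134 and 137 CPM on day 5 in replicates 1 to 4, and 53.9, 51.5, 34.5 and 34.3 CPM on day 0. Day 10 gave 60.1, 65.04, 30.9 and 61.6 CPM, day 14 gave 116, 83.7, 47.2 and 17.4 CPM, and day 18 gave 91.1, 96.3, 13.5 and 32.7 CPM. Every day 5 heifer was above the highest library of another day, day 14 replicate 1, and days 14 and 18 were spread over several fold. Its day 5 median was 2.17 times that of day 14, and its log2 fold change was 1.82 (SE 0.55) from day 0 to day 5 and −1.63 (SE 0.54) from day 5 to day 10. Between days 0 and 10 the difference was 0.19 on the log2 scale (SE 0.53, edgeR adjusted p = 0.831, range 0.542 to 0.924 over 16 alternatives).

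ENSBTAG00000019289 was the next of these 14. Its day 5 values were 43.6, 134, 76.4 and 98.0 CPM in replicates 1 to 4, against 13.6, 18.6, 18.2 and 17.2 CPM on day 0. It stood at 11.4, 40.8, 19.3 and 20.04 CPM on day 10, 32.3, 27.1, 21.4 and 6.49 CPM on day 14, and 35.8, 33.9, 13.4 and 9.70 CPM on day 18. Day 5 replicate 1 was the lowest of its day here too, and only narrowly above day 10 replicate 2. The log2 fold change was 2.19 (SE 0.51) from day 0 to day 5 and −1.89 (SE 0.50) from day 5 to day 10, and 0.30 (SE 0.49, edgeR adjusted p = 0.701, range 0.413 to 0.906 over 16 alternatives) from day 0 to day 10, which became −0.10 without day 10 replicate 2.

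**Figure D5:**
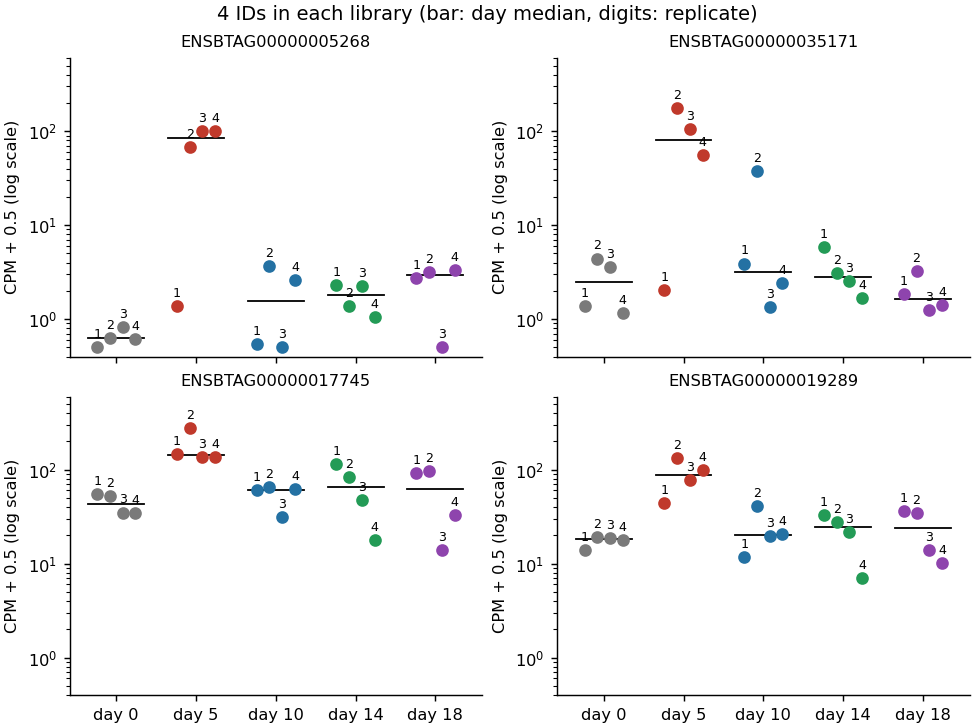
CPM + 0.5 on a log scale (vertical axis) of the 4 printed IDs in each of the 20 libraries, by day; digits are replicate numbers and bars are day medians. In the upper panels day 5 replicate 1 (0.890 and 1.56 CPM) lies with the other days, and in the lower panels all 4 day 5 libraries lie above all others.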

How the data were processed

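Poly(A) RNA of 20 biopsies was sequenced from TruSeq stranded libraries, per the labels' protocols. FastQC, STAR and edgeR are named per the submitters' processing notes, without versions or roles; for the build, annotation, counting program and strand setting, the entry is: not given in the sources used here. Therefore reads of overlapping, antisense or near-identical genes may not be told apart. The deposited values are raw counts per gene ID, 1 file per library. The labels allot 4 heifers to each day, 1 library each, so p-values measure the spread between heifers.

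CPM used total counts. Counts were tested in R 4.3.3 with edgeR 4.0.16: filterByExpr, TMM factors, 1 mean per day, robust quasi-likelihood fit over all 20 libraries, two-sided F-tests, Benjamini-Hochberg adjustment and a threshold of 0.05; the SE is the log2 fold change divided by the square root of F. Log2 CPM used a prior count of 2. Alternatives were RLE factors, total counts alone, 2 other low-count filters, voom with quality weights from limma 3.58.1, DESeq2 1.42.0, a replicate block, each library left out, and other forms of the rule; leaving out 3 libraries together was added after seeing the data. Single libraries were checked with Dixon's ratio. Python 3.11.15 and matplotlib 3.10.9 were used.

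The selection rule, the 20 gene lists and the tests were chosen with earlier results of these data known. The lists need gene names and were not applied. Printed IDs are the 2 with the largest ratio of day 5 to the next day and the 2 with the highest day 5 median among those above all 16 other libraries.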

Additional observations from a re-analysis of the deposited data

Results flagged for a closer look

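For the 4 printed IDs and 3 summary measures of the 218 IDs, 35 groups of 4 libraries were searched for a library far from the other 3 by Dixon's ratio, which chance exceeds in about 1 group in 20. It was exceeded in 3 groups. ENSBTAG00000017745 stood at 279 CPM in day 5 replicate 2, where the other day 5 libraries ran from 134 to 148 CPM. The same ID was at 30.9 CPM in day 10 replicate 3, below 60.1 to 65.04 CPM in the others. ENSBTAG00000035171 was at 37.6 CPM in day 10 replicate 2, above 0.840 to 3.41 CPM in the others.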

How the results depend on the processing

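The number of selected IDs depended on the rule. In place of 218 it was 130 with means instead of medians (113 shared with the 218), 599 with a 1.5-fold limit, 70 with a 3-fold limit, and 166 to 268 with any 1 library left out; without day 5 replicate 1 it was 254, of which 185 were shared. Under TMM-scaled totals, other offsets and other minimum levels it stayed between 172 and 257.

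The counts of IDs called moved by more than 1.5 times as follows. Each list of counts is followed by the shares of all tested IDs called in either direction, in the same order. DESeq2 called 63 IDs from day 0 to 10, 32 from day 0 to 14, 13 from day 0 to 18, 27 from day 5 to 10, 116 from day 5 to 14, 77 from day 5 to 18 and 2 from day 10 to 18 (23.6%, 23.7%, 9.87%, 1.66%, 8.1%, 3.35% and 0.462%). Voom called 196 from day 0 to 5, 48 from day 0 to 14, 94 from day 5 to 10, 197 from day 5 to 14 and 88 from day 5 to 18 (34.3%, 48.6%, 7.2%, 34.8% and 6.42%). With no filter, 0 were called from day 0 to 18 and 9 from day 5 to 14 (1.42% and 0.0999%). With total counts alone, 14 were called from day 0 to 14 and 4 from day 5 to 18 (18.9% and 0.0295%). With a replicate block, 16 were called from day 0 to 14, 38 from day 5 to 14 and 0 from day 5 to 18 (17.3%, 2.2% and 0%). Without the 3 libraries that lay apart, 158 were called from day 0 to 5, 33 from day 0 to 14, 1 from day 0 to 18, 107 from day 5 to 14 and 0 from day 5 to 18 (17.7%, 25.3%, 3.86%, 5.4% and 0.00576%). The cause of these shifts was not tested.

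With 1 library of either day left out, the counts ran from 39 to 98 (day 0 to 5), 11 to 42 (day 0 to 10), 2 to 4 (day 0 to 14), 0 to 7 (day 0 to 18), 0 to 15 (day 5 to 10), 0 to 84 (day 5 to 14) and 0 to 70 (day 5 to 18). The shares of all tested IDs called in either direction, in that order, were 2.53% to 8.02%, 7.28% to 16.4%, 5.91% to 12.6%, 0.611% to 13.7%, 0% to 0.198%, 0.0116% to 5.04% and 0% to 2.55%. Among days 10, 14 and 18 the counts were 0, with 0% to 0.192% of all tested IDs called. From day 0 to 10, the log2 fold change of ENSBTAG00000035171 ran from −0.16 to 2.69 and that of ENSBTAG00000019289 from −0.10 to 0.54, both turning negative without day 10 replicate 2 and in no other of these fits.

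The replicate numbers do not pair heifers by the labels. Over 40 pairs of libraries with the same number on different days, deviations from the day means correlated at −0.37 to 0.77. The middle value was 0.05, beside −0.02 for pairs with different numbers. Of the 40 pairs, 12 were over 0.1, and 10 of the 20 libraries correlated best with their own number. Whether the replicate number marks a shared factor was not tested. Each comparison rests on 4 heifers a day, and IDs near 0 CPM, such as ENSBTAG00000005268 outside day 5, rest on few counts.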
